A study of Mus musculus with 6 samples.

Results

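The values below compare kidney tubular epithelial cells of MMPP-treated ADPKD mice with those of untreated ADPKD mice. Each gene with at least 1 FPKM (fragments of a gene scaled to exon length and library size) in at least 2 of these 4 libraries was a member, which gave 13909 of the 55367 gene symbols in the files. The choice used expression level, but it was not independent of direction. A gene under 1 FPKM in both libraries of a group could pass only through the other group, so the filter fixed its direction. Most gene lists below hold such members, and not every one of them is named. At the threshold, *Gm7206* was the last gene kept, with a second-highest value of 1.0003 FPKM, and *Eif1-ps2* was the first one dropped, with 0.999 FPKM.

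MMPP is an ultra-small melanin nanoparticle that carries manganese ions and is coated with the polymers PVP and PEG. The ADPKD mice were Pkd1-/-, made from Pkd1 fl/fl;Cre/Esr1+ animals by tamoxifen, and received saline or MMPP. WT mice received saline. Every group had 2 libraries of polyA RNA, labelled Day115, from cells that bind DBA, a plant lectin used to collect collecting duct epithelium. The labels also speak of RNA from whole kidney in the step that follows the isolation. The Cre/Esr1 transgene is a ubiquitous inducible Cre in this model, so *Pkd1* was not deleted in the collecting duct alone. The labels do not say that the 2 libraries of a group came from separate animals, so the p-values measure the spread between libraries, which may be technical.

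In ADPKD, tubular cells that have lost polycystin-1 or polycystin-2 proliferate, secrete fluid into cysts and shift from oxidative metabolism and fatty acid oxidation toward glycolysis. Proximal tubule cells take up filtered solutes with dedicated transporters and receptors and run gluconeogenesis, ammoniagenesis and detoxification, all fuelled by mitochondria and peroxisomes. Collecting duct principal cells move water and sodium under vasopressin and aldosterone, and their cAMP signal reaches the nucleus through CREB, which binds the cAMP response element (CRE).

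Depth, read from the steps that single reads leave in the FPKM values, was 33.1 M and 32.1 M reads in the ADPKD libraries and 11.8 M and 10.9 M in the ADPKD+MMPP libraries. Odd read numbers made up 40.9% to 42.6% of low values in the WT and ADPKD libraries but 10.5% and 9.61% in the ADPKD+MMPP libraries, so the treated values carry another pattern of read steps. This difference and the treatment cannot be told apart. Over the genes tested, log2(FPKM + 1) correlated with r of 0.958 between the ADPKD libraries, 0.992 between the treated libraries, and 0.600 to 0.651 between ADPKD and treated libraries; genes are not independent replicates. The ADPKD libraries stood apart from each other, with tubular genes of nearly every segment higher in ADPKD 1 than in ADPKD 2. For this reason each tubular result is given by library.

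After MMPP treatment 10219 genes were called, which is 73.5% of those tested, at a fold change of at least 1.5 and P under 0.05 in limma. Of these, 4141 rose (29.8%) and 6078 fell (43.7%). The median log2 fold change was -0.31. With such a background, a call alone says little about a gene, and the text weighs the size of a change and the structure of the gene. The split between higher and lower calls also moved with scaling: 40.5% of called genes were higher with FPKM as deposited, 53.6% after quantile normalization, 33.0% after rescaling to a common sum, and 57.5% among protein-coding genes after each library was centred within bins of the share of exon bases that lie in exactly 1 transcript.

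The change followed the number of annotated transcripts of a gene step by step. The median log2 fold change was 1.13 for the 1246 protein-coding genes with 1 transcript in GENCODE vM21, 0.71 for those with 2, 0.44 for those with 3 and -0.14 for those with 4 to 5. The median was -0.82 for 6 to 8 transcripts, -1.19 for 9 to 12 and -1.58 for 13 or more. Among genes with 1 transcript, the 241 genes with a single exon had a median of 0.98 and the 1005 with more exons 1.17. RNA classes that are short also stood out. All 100 miRNA genes, all 49 snRNA genes and 105 of 106 snoRNA genes that were tested were listed at 0 in both treated libraries. In all, 566 tested genes were listed at 0 in both treated libraries, 66 of them protein-coding, against 16 in both ADPKD libraries. An exact 0 in these files can therefore be a missing estimate.

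**Figure D1:**
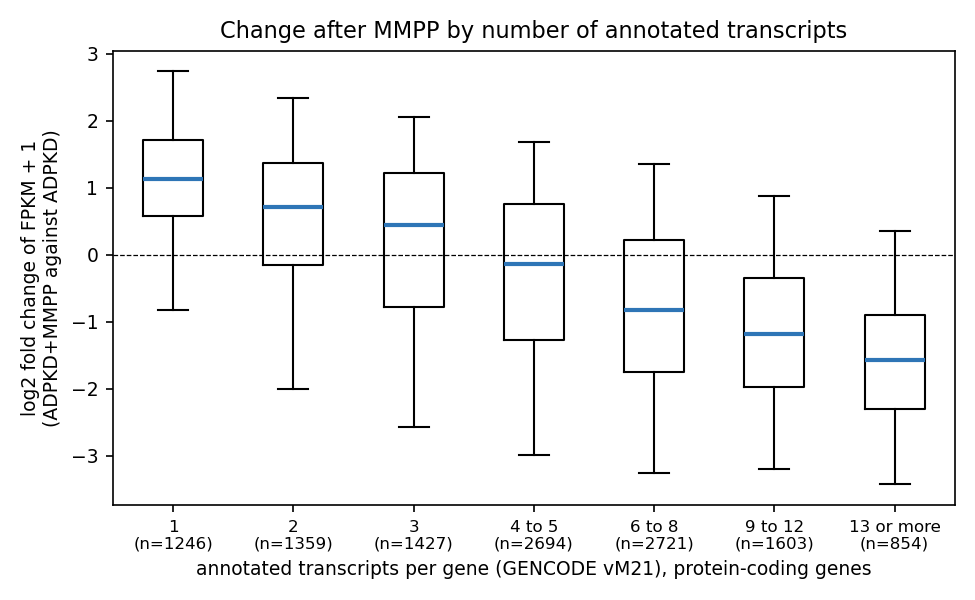
Log2 fold change of FPKM + 1 in ADPKD+MMPP against ADPKD (y axis) for protein-coding genes grouped by the number of transcripts in GENCODE vM21 (x axis). Boxes show the quartiles and the median, and whiskers the central 90% of genes. The median goes from 1.13 with 1 transcript to -1.58 with 13 or more.

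The genes with 1 annotated transcript are described first. Of these 1246 genes, 987 were called (79.2%), of which 912 rose (73.2%) and 75 fell (6.02%). Relative to the median of these genes in each library, 580 were called (46.5%), 297 higher (23.8%) and 283 lower (22.7%). The treated libraries lay above both ADPKD libraries for 81.4% of them and below both for 8.75%, compared with 38.2% and 50.9% of all genes tested. The centred change says how far a gene moved relative to the other genes of its kind.

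Of the 12 largest increases among these genes, 4 were on the lists of proximal tubule transporters and enzymes, *Slc7a13*, *Slc22a6*, *G6pc* and *Cyp2j5*. *Slc7a13*, an amino acid transporter of the late proximal tubule (chromosome 4, 19818725 to 19842218, GRCm38), had 1.75 and 0.0291 FPKM in ADPKD and 161 and 159 FPKM in ADPKD+MMPP. It rose by a log2 of 6.58 (SE 0.50, limma with Benjamini-Hochberg adjustment over all genes tested, adjusted p = 9.14e-05), and by 5.44 relative to the one-transcript genes. Its ADPKD 2 value rested on 2 reads, under the floor of 3 reads, while the treated values rested on 4060 and 3708 reads. *Slc22a6*, which encodes the main organic anion transporter of the basolateral membrane, had 4.27 and 0.251 FPKM in ADPKD and 147 and 150 FPKM in ADPKD+MMPP, a log2 fold change of 5.87 (SE 0.69, limma, adjusted p = 0.000474). *G6pc*, which releases free glucose in the final step of gluconeogenesis, had 2.14 and 1.61 FPKM in ADPKD against 103 and 102 FPKM after treatment, a 54.5-fold higher mean. Its ADPKD libraries lay close together, and its log2 fold change of 5.17 had the smallest error of the 12 highest genes (SE 0.17, limma, adjusted p = 1.61e-05).

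The rest of the 12 were enzymes, a transporter and a carrier protein. *Cyp2a4*, a steroid hydroxylase, had 0.939 and 0.0718 FPKM in ADPKD and 83.9 and 82.8 FPKM in ADPKD+MMPP. *Cyp4a12a*, a fatty acid hydroxylase, had 1.67 and 0.245 against 65.5 and 59.8 FPKM. *Cyp2j5*, an arachidonic acid epoxygenase of the kidney, had 28.6 and 4.95 against 305.1 and 304.5 FPKM. These cytochromes share a pattern of low ADPKD values, with ADPKD 1 above ADPKD 2, and nearly equal treated values. *Ugt2b38*, a glucuronosyltransferase, had 12.5 and 1.53 FPKM in ADPKD and 262 and 246 FPKM in ADPKD+MMPP. *Nat8*, an acetyltransferase of cysteine conjugates, had 9.02 and 3.31 against 160.5 and 160.8 FPKM. *Ttr*, the thyroid hormone carrier transthyretin, was the only one of the 12 with ADPKD 2 above ADPKD 1, at 0.535 and 0.894 FPKM, and reached 47.4 and 54.1 FPKM. *Slc22a28*, *Mettl7b* and *Bhmt2* completed the 12, with log2 fold changes of 4.92, 4.33 and 4.30. *Slc22a28* was listed at 0 in ADPKD 2. *Cyp2a4* and *Ttr* were under 1 FPKM in both ADPKD libraries and passed the filter only through the treated libraries, so they could only be higher. Of the 12, *Cyp4a12a*, *Cyp2j5* and *Slc7a13* are known as androgen-dependent genes of the mouse kidney, as is *Kap*, described below. The paper's methods state that tamoxifen was given to male mice. In WT libraries all 12 genes lay between 0.105 and 6.90 FPKM, so the treated values were above both untreated groups.

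**Figure D2:**
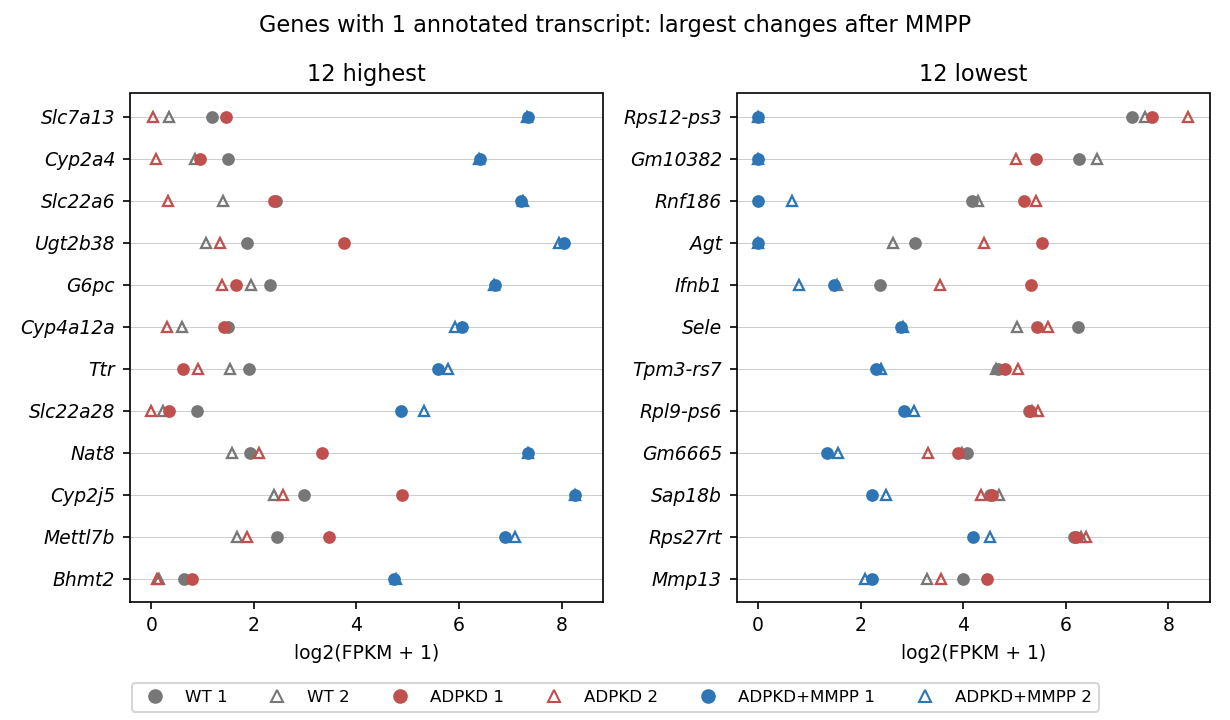
Values of each library as log2(FPKM + 1) (x axis) for the 12 highest and 12 lowest log2 fold changes among called protein-coding genes with 1 annotated transcript. Circles are replicate 1, open triangles replicate 2, grey WT, red ADPKD and blue ADPKD+MMPP. In the left panel both treated libraries lie to the right of all others, and *Rps12-ps3*, *Gm10382* and *Agt* lie at 0 in both treated libraries in the right panel.

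Among the 12 largest decreases of one-transcript genes, *Rps12-ps3*, *Gm10382* and *Agt* were listed at 0 in both treated libraries. *Rps12-ps3* had 203 and 333 FPKM in ADPKD, *Gm10382* had 41.7 and 31.7 FPKM, and *Agt*, which encodes the renin substrate angiotensinogen, had 45.3 and 20.3 FPKM. *Rps12-ps3*, *Rpl9-ps6*, *Tpm3-rs7*, *Sap18b* and *Rps27rt* are copies of other genes by name, and reads that fit both copies make their values uncertain. *Rpl9-ps6* had 38.3 and 42.9 FPKM in ADPKD and 6.17 and 7.19 FPKM in ADPKD+MMPP, and the others fell by a log2 of 1.94 to 2.59 (the range from *Rps27rt* to *Tpm3-rs7*). *Gm6665*, a predicted gene, fell by a log2 of 2.15.

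The lower genes that are no copies by name included immune and matrix genes. *Rnf186*, a ubiquitin ligase of epithelial membranes, had 35.4 and 42.0 FPKM in ADPKD and 0 and 0.585 FPKM in ADPKD+MMPP, where 1462 and 1682 reads stood against 0 and 8. It passed the filter through the ADPKD libraries alone, as did the genes listed at 0, and could only be lower as deposited. *Ifnb1*, which encodes interferon beta, had 39.1 and 10.7 FPKM in ADPKD and 1.81 and 0.733 FPKM in ADPKD+MMPP, and 4.19 and 1.90 FPKM in WT. Its log2 fold change was -3.29 (SE 0.62, limma, adjusted p = 0.0035). *Sele*, the endothelial adhesion molecule E-selectin, had 42.3 and 49.2 FPKM in ADPKD and 5.93 and 6.11 FPKM in ADPKD+MMPP. *Mmp13*, a collagenase, had 20.99 and 10.9 FPKM in ADPKD and 3.67 and 3.22 FPKM in ADPKD+MMPP. Relative to the other one-transcript genes these 4 were lower by a log2 of 3.002 (*Mmp13*) to 6.11 (*Rnf186*).

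The lists of tubular markers were then counted by segment. Over all genes tested 29.8% rose and 43.7% fell, and the count of every list below is to be read beside these shares. Of 39 proximal tubule transporters, all of which passed the expression filter, 28 rose and 3 fell, with a median log2 fold change of 1.74 against -0.31 for all genes tested. After centring within bins of exon share, which ties each gene to genes of like structure, 34 were higher and none lower, with a median of 2.23. Over all 11904 protein-coding genes this centring left 58.0% called, 33.3% higher and 24.7% lower, with a median of 0.14. The 7 of them with 1 transcript all rose as deposited, and relative to the one-transcript genes 6 of them were called higher, with a median over the 7 of 2.63. The 3 lower members had 10 (*Slc6a18*), 7 (*Slc6a19*) and 4 (*Slc26a1*) transcripts, against a median of 4 over the list. *Slc6a18*, a glycine transporter, had 42.4 and 19.9 FPKM in ADPKD and 12.4 and 8.92 FPKM in ADPKD+MMPP. All 3 turned positive when centred, none of the list fell without ADPKD replicate 1, 5 fell without ADPKD replicate 2, and 1 or none fell without a treated library. *Slc22a12*, the urate transporter, had 12.2 and 1.05 FPKM in ADPKD and 102 and 103 FPKM after treatment. *Aqp1*, the water channel of the proximal tubule and the most abundant member, had 255 and 181 FPKM in ADPKD and 687 and 722.5 FPKM in ADPKD+MMPP, an increase that was within the change of other one-transcript genes (0.57 when centred, not called). All 39 members were higher in ADPKD 1 than in ADPKD 2. *Slc22a30*, *Slco1a1*, *Slc6a20b* and *Slc16a9* passed the filter through the treated libraries alone and could only be higher. *Slc6a19* passed through the ADPKD libraries alone and could only be lower as deposited.

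Of the 45 tested proximal tubule enzymes, of 49 listed, 34 rose and 5 fell, with a median log2 fold change of 2.54 and of 2.90 when centred within bins. *Hpd*, *Acsm3* and *Dmgdh* passed the filter through the treated libraries alone and could only be higher as deposited. *Cyp27b1*, *Fmo2* and *Hnf4a* passed it through the ADPKD libraries alone and could only be lower as deposited. *Kap*, the kidney androgen-regulated protein, was the most abundant, at 508.9 and 64.0 FPKM in ADPKD and 12822 and 12116 FPKM in ADPKD+MMPP. It rose by a log2 of 6.10 (SE 0.95, limma, adjusted p = 0.00155), and the gap between the ADPKD libraries set its error. *Miox*, the enzyme of inositol breakdown, had 7.71 and 0.491 FPKM in ADPKD, 166 and 162 FPKM in ADPKD+MMPP, and 31.1 and 13.6 FPKM in WT. *Hnf4a*, which encodes a transcription factor of proximal tubule differentiation, had 7.28 and 5.37 FPKM in ADPKD and 0.0351 and 0 FPKM after treatment. The filter fixed its direction as deposited, and *Hnf4a* remained lower when centred, at -0.94. *Adh1* and *Fmo2*, an alcohol dehydrogenase and a monooxygenase, were also lower, and *Fmo2* was not called when centred. Of the genes of brush border and endocytosis, 7 of 16 rose and 5 fell, and the median of 0.81 was 1.25 without ADPKD replicate 1 and 0.13 without ADPKD replicate 2. *Lrp2*, the endocytic receptor megalin, had 9.80 and 4.86 FPKM in ADPKD and 68.7 and 68.7 FPKM in ADPKD+MMPP, a log2 fold change of 3.13 (SE 0.28, limma, adjusted p = 0.000178). *Mep1b*, the beta subunit of the brush border protease meprin, rose by a log2 of 5.04, while *Mep1a*, its alpha subunit, fell by 2.49 and was not called when centred (-0.59) or without either treated library. *Anpep*, aminopeptidase N, also fell, by 2.63, and was not called when centred. *Anpep* and *Pdzk1* passed the filter through the ADPKD libraries alone and could only be lower as deposited.

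Summed over each list, the proximal enzymes held 2549 and 1863 FPKM in ADPKD and 26558 and 25415 FPKM in ADPKD+MMPP, and the transporters 646 and 315 FPKM against 2058 and 2076 FPKM. In bulk RNA, fewer cells of a type and less RNA per cell cannot be told apart, nor can more cells and more RNA. DBA does not select for proximal tubule cells, and their share of each preparation was not measured. Its part in these differences was not tested.

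**Figure D3:**
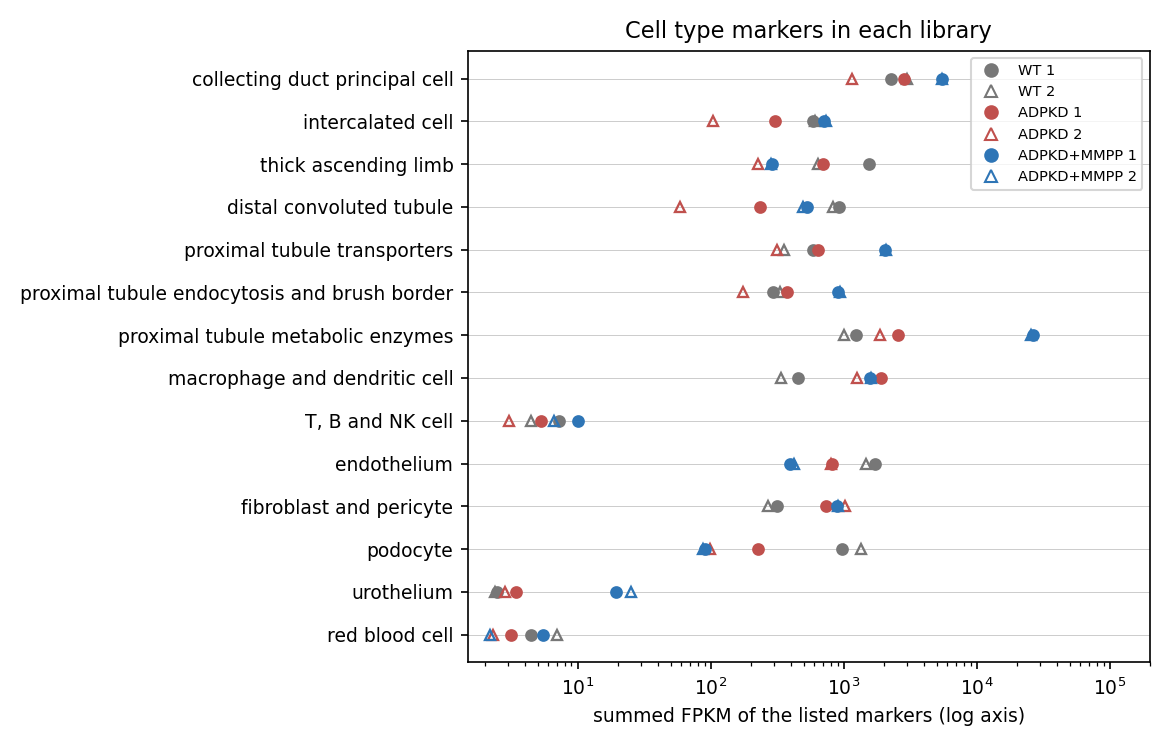
Summed FPKM (x axis, log scale) of the listed markers of each cell type in every library, with the symbols by group and replicate. The proximal tubule enzymes reach 26558 and 25415 in the treated libraries, while endothelial and podocyte markers are lowest there.

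The lists of the distal segments differed from each other. In principal cells, the type that DBA marks, *Aqp2*, the vasopressin-regulated water channel, had 1392 and 677 FPKM in ADPKD and 3555 and 3499 FPKM in ADPKD+MMPP. Its log2 fold change was 1.86 (SE 0.35, limma, adjusted p = 0.00361), but 0.72 and not called relative to the other one-transcript genes. *Hsd11b2*, the enzyme that keeps cortisol off the mineralocorticoid receptor, had 432 and 56.4 FPKM in ADPKD and 1029 and 1064 FPKM in ADPKD+MMPP, and *Aqp3*, the basolateral water channel, had 309 and 80.6 against 623 and 668 FPKM. In the list, 5 of 12 rose and 5 fell, with a median of -0.12, and the direction of the median was not stable: it was 0.40 without ADPKD replicate 1, -0.59 without ADPKD replicate 2, 0.16 with TMM factors and 0.74 when centred within bins. Without either treated library 2 of the 12 rose. *Npnt*, an integrin ligand of the collecting duct, fell from 204 and 85.4 FPKM to 5.12 and 5.43 FPKM, and *Aqp4* was also lower, with both called when centred. The calls of *Hsd11b2* and *Aqp3* were lost without either treated library.

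Of the intercalated cell genes 12 of 16 rose and 2 fell, with a median of 1.997, and without ADPKD replicate 2 the numbers were 11 and 4. *Foxi1*, the transcription factor that specifies intercalated cells, has 1 transcript and had 2.14 and 1.35 FPKM in ADPKD and 23.1 and 22.9 FPKM in ADPKD+MMPP, a log2 fold change of 3.14 (SE 0.18, limma, adjusted p = 3.92e-05) and 2.01 when centred. *Slc26a4*, the bicarbonate exchanger pendrin, had 12.4 and 2.15 FPKM in ADPKD, 45.3 and 45.0 FPKM in ADPKD+MMPP and 83.6 and 109 FPKM in WT. *Oxgr1*, the ketoglutarate receptor, rose by 2.96. Of the subunits of the proton pump, *Atp6v0a4* fell from 27.8 and 21.4 FPKM to 1.14 and 1.51 FPKM and stayed lower when centred.

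In the thick ascending limb, 4 of 10 genes rose and 1 fell as deposited, and 9 were higher and none lower when centred within bins. Without ADPKD replicate 2 there were 3 higher and 4 lower, with a median of 0.31, and without ADPKD replicate 1 there were 6 higher and none lower, with a median of 1.26, against 0.76 with all libraries. *Bsnd*, the chloride channel subunit barttin with 1 transcript, had 6.03 and 1.11 FPKM in ADPKD and 35.1 and 38.5 FPKM in ADPKD+MMPP. *Umod*, uromodulin, the most abundant gene of that segment, had 498 and 152 FPKM in ADPKD and 80.3 and 79.3 FPKM in ADPKD+MMPP, and changed sign when centred (0.44). Its call was lost without ADPKD replicate 1 (-0.92) and without either treated library. In the distal convoluted tubule 6 of 7 rose and 1 fell, among them *Calb1*, a calcium-binding protein, with 11.1 and 2.28 FPKM in ADPKD and 43.1 and 43.0 FPKM in ADPKD+MMPP. Without either treated library only 2 of the 7 were called higher. The median of that list was 2.22 with all libraries, 0.88 without ADPKD replicate 2 and 2.47 without ADPKD replicate 1. In all distal lists most members were higher in ADPKD 1 than in ADPKD 2, 11 of 12 for principal cells, 15 of 16 for intercalated cells, 10 of 10 for the thick limb and 6 of 7 for the distal convoluted tubule, compared with 7252 of all 13909 genes.

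Markers of cells outside the tubule differed by cell type. None of 14 endothelial genes rose and 9 fell, with a median of -1.67, and 12 were lower when centred within bins. *Pecam1*, the junctional protein CD31, had 67.5 and 67.9 FPKM in ADPKD and 3.64 and 4.41 FPKM in ADPKD+MMPP. *Eng*, endoglin, had 112 and 87.3 FPKM in ADPKD and 2.91 and 2.81 FPKM in ADPKD+MMPP. *Pecam1* has 8 transcripts and *Eng* has 6. *Plvap*, the diaphragm protein of fenestrated endothelium and the only one-transcript member, had 242 and 277 FPKM in ADPKD and 208 and 236 FPKM in ADPKD+MMPP, which was not called, and lay 1.36 below the other one-transcript genes when centred, which was called. The endothelial sum was 820 and 806 FPKM in ADPKD and 396 and 424 FPKM in ADPKD+MMPP.

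Of 7 podocyte genes 5 fell and none rose. The filter shaped this count, since *Nphs1*, *Synpo*, *Wt1*, *Cdkn1c* and *Ptpro* passed it through the ADPKD libraries alone and could only be lower as deposited. *Synpo*, the actin-associated protein synaptopodin, had 24.5 and 20.1 FPKM in ADPKD and 0.675 and 0.865 FPKM in ADPKD+MMPP, and *Nphs1*, nephrin, had 13.3 and 3.42 against 0.205 and 0.332 FPKM. *Podxl*, podocalyxin, the most abundant marker, had 114 and 56.8 FPKM in ADPKD and 84.1 and 80.8 FPKM in ADPKD+MMPP and did not pass the test. Fibroblast and pericyte genes were divided. *Pdgfrb* and *Pdgfra*, growth factor receptors of these cells, and *Dcn*, decorin, fell, while *Col3a1*, a fibrillar collagen, had 32.3 and 32.6 FPKM in ADPKD and 65.3 and 65.1 FPKM in ADPKD+MMPP. *Mgp*, matrix Gla protein, the most abundant, did not pass the test, with a log2 fold change of -0.06. *Pdgfra* and *Postn* passed the filter through the ADPKD libraries alone and could only be lower as deposited.

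Macrophage genes moved in both directions. *Csf1r*, the receptor for the macrophage growth factor, had 17.0 and 25.6 FPKM in ADPKD and 0.381 and 0.191 FPKM in ADPKD+MMPP, with 6 transcripts. *Csf1r*, *Ptprc*, *Itgam* and *Ms4a7* passed the filter through the ADPKD libraries alone and could only be lower as deposited. *C1qb*, a complement subunit with 1 transcript, had 101 and 126 FPKM in ADPKD and 221 and 241 FPKM in ADPKD+MMPP, and *Lyz2*, lysozyme, also with 1 transcript, had 188 and 224 against 568 and 565 FPKM. Relative to the other one-transcript genes *C1qb* was at -0.11 and *Lyz2* at 0.32, neither called. In all, 5 of 22 rose and 10 fell, which is near the 29.8% and 43.7% of all genes tested. The median of the list was -0.98, -0.41 without ADPKD replicate 1, and -0.12 when centred within bins, where 4 were higher and 7 lower. The sum of the list, 1923 and 1256 FPKM in ADPKD and 1569 and 1608 FPKM in ADPKD+MMPP, overlapped between the groups. Lymphocyte, urothelial and red cell lists had 3, 4 and 2 tested members. All 4 urothelial genes rose, at low levels: their list summed to 3.46 and 2.86 FPKM in ADPKD and 19.5 and 25.2 FPKM in ADPKD+MMPP. All 4 are one-transcript genes, of which 73.2% rose in general, and 2 stayed called when centred within bins and 1 when centred on the one-transcript genes, where the median went from 1.75 to 0.61. *Krt5*, a basal keratin, had 0.564 and 0.298 against 5.13 and 8.59 FPKM. *Krt5*, *Upk2* and *Upk3a* were under 1 FPKM in both ADPKD libraries. The filter admitted them through the treated libraries alone, so they could only be higher. *Trbc2*, a T cell receptor constant segment, had 0.131 and 0.721 against 4.16 and 1.59 FPKM. *Cd79a* and *Cd79b*, the paired signalling chains of the B cell receptor, moved apart, with log2 fold changes of 0.82 and -1.35 at levels under 3 FPKM. *Hbb-bs*, beta globin, stayed under 4 FPKM in all libraries, and *Hba-a1*, alpha globin, was listed at 0 in ADPKD+MMPP 2. *Trbc2*, *Cd79a* and *Hbb-bs* also passed the filter through the treated libraries alone, and *Cd79b* through the ADPKD libraries alone, so it could only be lower as deposited.

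**Figure D4:**
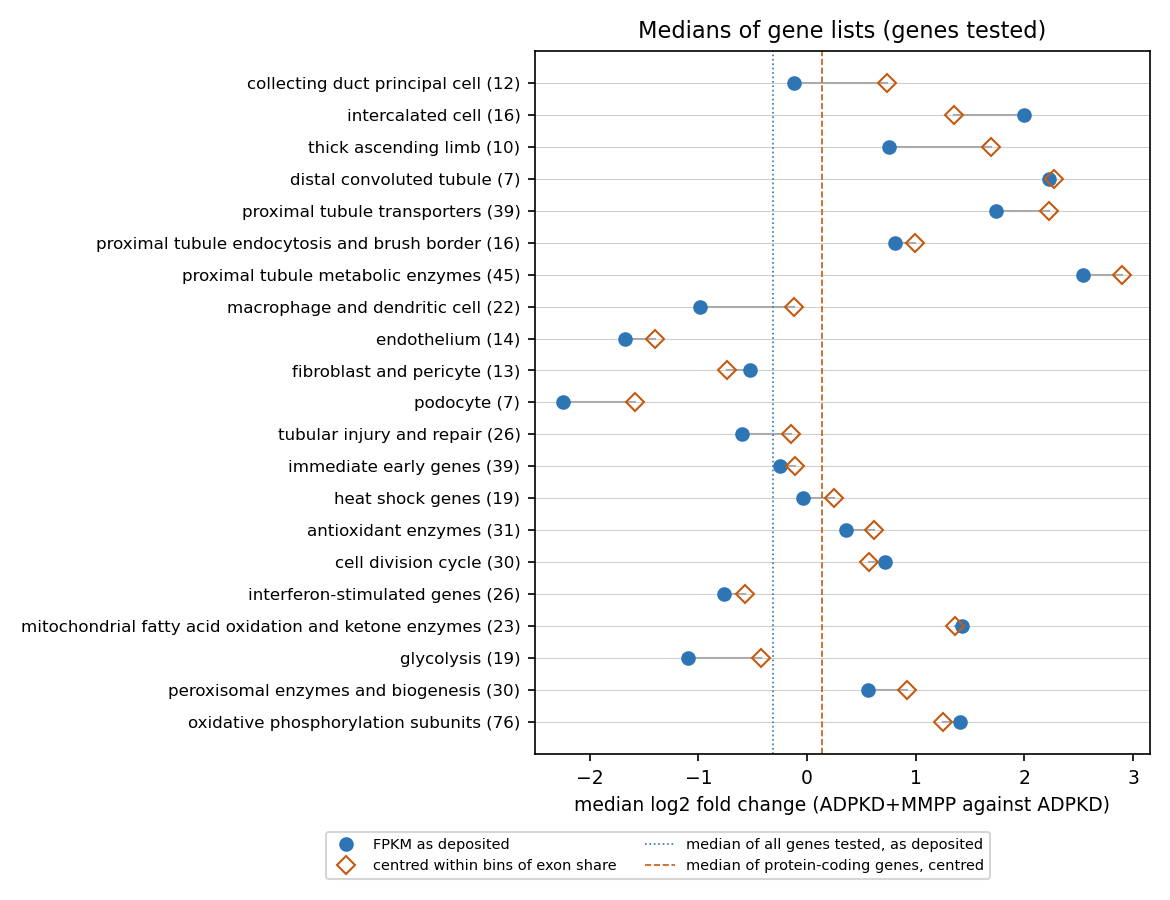
Median log2 fold change in ADPKD+MMPP against ADPKD (x axis) of each gene list with at least 7 tested genes, as deposited (filled circles) and after each library was centred within bins of exon share (open diamonds). Vertical lines mark the medians of all genes tested, -0.31, and of all protein-coding genes after centring, 0.14. Proximal tubule, intercalated cell and mitochondrial lists lie to the right of both lines, and endothelium and podocyte to the left.

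Genes of injured tubules did not move as a group. Of 26 genes, 5 rose and 13 fell, which is near the 29.8% and 43.7% of all genes tested. The median log2 fold change was -0.60. *Spp1*, osteopontin, the most abundant, had 4875 and 3984 FPKM in ADPKD, 1197 and 1370 FPKM in ADPKD+MMPP and 291 and 284 FPKM in WT. It fell by a log2 of 1.78 but with 7 transcripts changed sign when centred within bins (0.43). *Cd44*, a hyaluronan receptor of injured and cystic tubules, fell from 25.7 and 29.7 FPKM to 0.9999 and 0.947 FPKM, and *Anxa1*, an annexin that limits inflammation, fell from 253 and 331 FPKM to 15.9 and 18.1 FPKM. *Vim*, the intermediate filament vimentin, fell as well, and these 3 stayed lower when centred. *Cd44* passed the filter through the ADPKD libraries alone and could only be lower as deposited. *Clu*, clusterin, had 849 and 841 FPKM in ADPKD and 2094 and 2086 FPKM in ADPKD+MMPP and stayed higher when centred (0.87). *Krt8*, an epithelial keratin with 1 transcript, was 1.98-fold higher, which is below the median change of the one-transcript genes.

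The early genes, which respond within minutes to stress or tissue dissociation, and the heat shock genes each contained opposite changes. Among 39 tested early genes 14 rose and 13 fell. *Btg2*, an antiproliferative gene, had 176 and 125 FPKM in ADPKD and 900.3 and 884.5 FPKM in ADPKD+MMPP, a log2 fold change of 2.58 (SE 0.18, limma, adjusted p = 7.18e-05) and 1.44 when centred. *Ier2* had 213 and 131 against 832 and 856 FPKM, and *Dusp2*, a MAP kinase phosphatase, had 14.7 and 28.1 against 110 and 103 FPKM. *Junb*, the most abundant, was 2.65-fold higher and not called when centred within bins. The lower genes of this list had several transcripts. *Myc*, the growth regulator, had 75.5 and 91.5 FPKM in ADPKD, 0.873 and 1.35 FPKM in ADPKD+MMPP and 29.95 and 35.8 FPKM in WT. Its log2 fold change of -5.33 (SE 0.18, limma, adjusted p = 1.61e-05) was -3.43 when centred within bins. *Klf10* and *Csrnp1*, both transcription factors, fell by 5.32 and 4.88 and also stayed lower. *Klf10* passed the filter through the ADPKD libraries alone and could only be lower as deposited.

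Among 19 heat shock genes 7 rose and 7 fell. *Hspa1a* and *Hspa1b*, near-identical inducible HSP70 genes whose shared reads make the division between them uncertain, had 162 and 121 FPKM and 257 and 226 FPKM in ADPKD, and 1254 and 1216 FPKM and 2143 and 2187 FPKM in ADPKD+MMPP. They rose by 3.13 and 3.16, and by 1.99 and 2.02 relative to the other one-transcript genes. *Hspd1*, the mitochondrial chaperonin, had 47.6 and 41.9 against 256 and 250 FPKM and rose by 2.48. *Hspa5*, the chaperone of the endoplasmic reticulum, went from 865 and 732 FPKM to 68.1 and 69.4 FPKM, *Hspa8*, the constitutive form, from 360.5 and 357.2 to 21.8 and 20.3 FPKM, and *Cryab*, a small heat shock protein, from 286 and 275 to 8.07 and 9.48 FPKM. These 3 have 6 to 10 transcripts and stayed lower when centred.

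**Figure D5:**
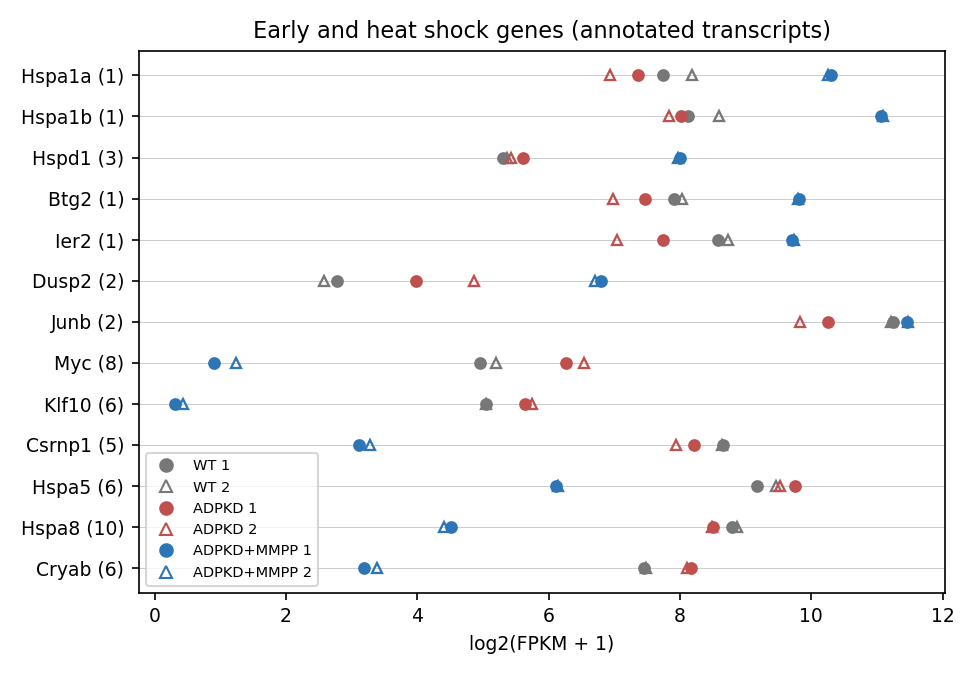
Values of each library as log2(FPKM + 1) (x axis) for early and heat shock genes, with the number of annotated transcripts in brackets. Symbols are as for the other plots of single libraries. In the upper 7 genes, *Hspa1a* to *Junb*, both treated libraries lie above the ADPKD libraries, and in the lower 6, *Myc* to *Cryab*, they lie below.

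Most genes of oxidative phosphorylation rose. Of 76 tested subunits of oxidative phosphorylation 54 rose and 12 fell, with a median log2 fold change of 1.41, and of 1.25 when centred within bins. The 8 with 1 transcript were all higher and all called when centred on the one-transcript genes, with a median of 1.18. *Ndufa13*, a subunit of complex I, had 46.9 and 36.0 FPKM in ADPKD and 272 and 274 FPKM in ADPKD+MMPP, a log2 fold change of 2.70 (SE 0.15, limma, adjusted p = 3.9e-05). *Ndufa1*, another one, had 105 and 85.5 against 516 and 596 FPKM, and *Cox8a*, of complex IV, had 533 and 387 against 1853 and 1754 FPKM. Among the lower members, *Atp5d*, of the ATP synthase, and *Ndufa12*, of complex I, had 4 transcripts each. *Atp5d* had 122 and 93.0 FPKM in ADPKD and 8.13 and 8.37 FPKM in ADPKD+MMPP, and both stayed lower when centred within bins. Of the tested subunits, 75 of 76 were higher in ADPKD 1 than in ADPKD 2, in step with the tubular markers, whose part in this difference was not tested.

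Fatty acid oxidation and ketone enzymes numbered 13 higher and 4 lower of 23. *Acat1*, which makes and breaks acetoacetyl-CoA, had 22.6 and 6.17 FPKM in ADPKD and 188 and 195 FPKM in ADPKD+MMPP. *Cpt2*, the inner carnitine palmitoyltransferase, had 3.98 and 2.54 against 28.4 and 30.1 FPKM. *Acadvl*, the very-long-chain dehydrogenase, fell from 24.0 and 16.5 FPKM to 0.757 and 0.819 FPKM. *Acadvl* and *Etfdh* passed the filter through the ADPKD libraries alone and could only be lower as deposited. Of 30 peroxisomal genes 15 rose and 10 fell, and 19 were higher and 4 lower when centred within bins. The median of 0.56 was 0.97 without ADPKD replicate 1 and 0.18 without ADPKD replicate 2. *Ehhadh*, the bifunctional enzyme of peroxisomal beta-oxidation with 1 transcript, had 9.01 and 8.90 FPKM in ADPKD and 98.4 and 108 FPKM in ADPKD+MMPP. It rose by a log2 of 3.39 (SE 0.15, limma, adjusted p = 2.22e-05), and its ADPKD libraries were nearly equal. *Pex5*, the import receptor, fell from 22.9 and 26.1 FPKM to 0.988 and 1.07 FPKM and stayed lower when centred.

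Glycolysis genes went the other way, with 3 of 19 higher and 13 lower and a median of -1.10, but of -0.42 when centred within bins, where 4 were higher and 8 lower. The list has a median of 9.5 annotated transcripts. *Ldha*, lactate dehydrogenase A, had 145 and 137 FPKM in ADPKD and 1.69 and 1.66 FPKM in ADPKD+MMPP. *Tpi1*, triose phosphate isomerase, had 125 and 93.6 against 1.78 and 2.20 FPKM. *Pgam1*, phosphoglycerate mutase, had 85.4 and 73.5 against 308 and 319 FPKM, and *Gapdh* had 23.5 and 19.3 against 79.6 and 64.4 FPKM. *Pgam1* and *Gapdh* have many processed copies in the genome, which makes their values uncertain. Whether copies affect the values of *Ldha* and *Tpi1* was not checked.

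Melanin is known as a scavenger of reactive oxygen species, and antioxidant enzymes were listed for this reason. Of 31 tested, 14 rose and 4 fell, with a median of 0.36 and 0.62 when centred within bins. *Gpx3*, the plasma glutathione peroxidase that the proximal tubule secretes, had 1274 and 1300 FPKM in ADPKD and 8789 and 8321 FPKM in ADPKD+MMPP. Its log2 fold change was 2.73 (SE 0.11, limma, adjusted p = 1.82e-05), and the ADPKD libraries were nearly equal. *Cat*, catalase, had 42.9 and 26.8 against 219 and 228 FPKM. *Gpx6*, another glutathione peroxidase, had 5.13 and 0.638 FPKM in ADPKD, 51.8 and 49.7 FPKM in ADPKD+MMPP and 24.2 and 9.96 FPKM in WT. *Txnrd1*, thioredoxin reductase, *Prdx2*, a peroxiredoxin, and *Gss*, glutathione synthetase, fell by 2.15, 1.79 and 1.78, with 8 or 9 transcripts each, and stayed lower when centred. *Gpx3* is also a product of proximal tubule cells, whose markers rose in the same libraries, and the part of these cells in the difference was not tested.

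The list of 41 cell division genes had 30 tested members, of which 18 rose and 5 fell. The filter shaped this count. *Cenpe*, *Cenpf*, *Kif11* and *Ccne1* were under 1 FPKM in both ADPKD libraries and passed only through the treated libraries, so they could only be higher. *Mcm5* and *Ect2* were under 1 FPKM in both treated libraries and passed only through the ADPKD libraries, so they could only be lower as deposited. Of the dropped members, *Ccnb1*, *Cdk1*, *Aurka*, *Tpx2*, *Prc1*, *Kif20a*, *Cdc6* and *Ccne2* lay lower in both treated libraries than in both ADPKD libraries. *Bub1* lay higher, and *Aurkb* and *Nusap1* overlapped. *Ccnd1*, cyclin D1, had 35.2 and 15.4 FPKM in ADPKD and 90.0 and 87.5 FPKM in ADPKD+MMPP, and *Cdc20*, an activator of the anaphase-promoting complex, had 5.55 and 1.75 against 14.0 and 12.4 FPKM. *Mcm2* and *Mcm5*, subunits of 1 replicative helicase, had log2 fold changes of 1.79 and -1.37. The direction of *Mcm5* was fixed by the filter, and *Mcm5* was at 0.03 when centred within bins. *Pcna*, the sliding clamp and most abundant member, did not pass the fold threshold, with a log2 fold change of 0.41. Of 26 interferon-stimulated genes, 6 rose and 13 fell, which is near the 29.8% and 43.7% of all genes tested. All 26 were higher in ADPKD 1 than in ADPKD 2. *Irf1* went from 85.9 and 53.0 FPKM to 1.64 and 1.59 FPKM and *Rsad2*, the antiviral enzyme viperin, from 122 and 42.9 to 1.92 and 2.16 FPKM. *Oas1a*, with 1 transcript, had 10.2 and 3.89 against 19.8 and 22.9 FPKM. The median of the list was -0.77, -0.13 without ADPKD replicate 1, where 10 rose, and -1.52 without ADPKD replicate 2, where 3 rose. Without either treated library 3 rose as well. The histone list took symbols that begin with Hist, of which the files hold 8. None of these passed the expression filter, and histone genes under newer symbols were not counted.

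The study also asked about CREB. *Pkd1* itself had 7.64 and 8.91 FPKM in ADPKD, 4.34 and 3.99 FPKM in ADPKD+MMPP and 17.7 and 17.2 FPKM in WT, and fell after treatment by a log2 of 0.84 (SE 0.13, limma, adjusted p = 0.0013), which was not called when centred within bins. *Creb1*, which encodes CREB, had 1.99 and 2.14 FPKM in ADPKD and 2.60 and 2.58 FPKM in ADPKD+MMPP, and *Crem*, a related factor, had 4.05 and 4.98 against 3.20 and 4.37 FPKM. Neither passed the test as deposited. The immune kinase *Syk* had 4.28 and 7.16 against 0.308 and 0.294 FPKM, the sterol transporter *Abcg1* 7.51 and 16.2 against 4.71 and 4.40 FPKM, the cytokine *Clcf1* 24.9 and 42.5 against 15.4 and 14.8 FPKM and the nuclear receptor *Nr4a2* 22.8 and 33.5 against 3.84 and 4.56 FPKM. The 4 genes fell by a log2 of 2.34, 1.13, 1.063 and 2.47. Of these, *Syk* passed the filter through the ADPKD libraries alone and could only be lower as deposited. When centred within bins, *Syk* and *Abcg1* were called lower, and *Clcf1* and *Nr4a2* were not called. They have 5 or 6 transcripts each. The call of *Abcg1* as deposited was lost without either treated library.

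Promoters were searched for the full CRE, TGACGTCA, a palindrome, and for the shorter TGACG on either strand outside a full site. The RefSeq windows (GRCm38.p6) reach from 250 bases before the start of a gene to 50 after. The paper counted CREB targets by CRE sequences in promoters, enhancers or both, among the genes it calls MMPP-rescued. The shares here come from a narrower search over another set of genes, so they do not test its count. Of 32851 windows 1.79% held the full CRE and 19.5% the shorter site. Of the 9913 tested genes that matched a window by symbol, 334 held the full CRE (3.37%). 8 windows follow as 30 bases around the site, with the CRE in capitals, chosen after their values were seen: 6 of genes with 1 transcript, which carry the comparison best, and 2 of genes with several transcripts.
*Btg2*: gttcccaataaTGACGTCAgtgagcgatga
*Uqcrfs1*: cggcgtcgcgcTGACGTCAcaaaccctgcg
*Arl4d*: gccgcgtcgtgTGACGTCAcgagagggttt
*Tubb2a*: ctctgcccccaTGACGTCAgcgggactggg
*Areg*: gggctggtccgTGACGTCAcgggcggtggc
*Lmcd1*: gccggctaagcTGACGTCAgggtagagttt
*Ldha*: ggctcccactcTGACGTCAgcgcggagctt
*Mcm5*: gagttgactcgTGACGTCAccaagacgcca
These lie at chr1:134079303-134079332 on the minus strand (*Btg2*), chr13:30545327-30545356 on the minus strand (*Uqcrfs1*), chr11:101665504-101665533 on the plus strand (*Arl4d*), chr13:34078049-34078078 on the minus strand (*Tubb2a*), chr5:91139527-91139556 on the plus strand (*Areg*), chr6:112273617-112273646 on the plus strand (*Lmcd1*), chr7:46845781-46845810 on the plus strand (*Ldha*) and chr8:75109399-75109428 on the plus strand (*Mcm5*). The site begins between 12 and 166 bases upstream of the annotated start, in *Ldha* and *Btg2*.

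Genes with these sites did not share a direction. *Uqcrfs1*, the Rieske protein of complex III, had 99.1 and 85.7 FPKM in ADPKD and 475 and 466 FPKM in ADPKD+MMPP. *Arl4d*, a small GTPase, had 105 and 101 against 297 and 298 FPKM, and *Tubb2a*, a beta tubulin, had 133 and 108 against 308 and 316 FPKM. *Areg*, the EGF receptor ligand amphiregulin, had 5.77 and 7.42 against 12.4 and 9.96 FPKM. Relative to genes of like structure, *Uqcrfs1* and *Btg2* lay at 1.21 and 1.45, *Arl4d* and *Tubb2a* at 0.39 and 0.24, and *Areg* at -0.45. *Lmcd1*, a LIM domain protein, had 35.9 and 36.1 FPKM in ADPKD and 27.4 and 32.5 FPKM in ADPKD+MMPP and lay at -1.39, while *Ldha* lay at -4.55 and *Mcm5* at 0.03. Over all genes with the full CRE, 31.7% rose and 43.7% fell, and over the 9579 genes without it 31.2% rose and 42.5% fell. Their median log2 fold changes were -0.15 and -0.25 as deposited and 0.04 and 0.15 when centred within bins. Among one-transcript genes the median was 0.97 for the 28 with the full CRE and 1.16 for the 885 without it. As deposited, 22 of these 28 were called higher and 1 lower (78.6% and 3.57%), against 76.5% and 4.29% of the 885. Genes with the shorter site had a median of -0.40 and those without it -0.16 as deposited, and 0.058 and 0.185 when centred within bins. Among one-transcript genes these medians were 1.14 and 1.16 as deposited. There, 82.2% with the shorter site were called higher and 1.62% lower, against 74.5% and 5.26% of those without it. When centred within bins, 14.3% of the one-transcript genes with the full CRE were higher and 17.9% lower, against 26.1% and 19.1% of those without it. These differences were not tested.

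Among genes with more than 1 transcript, 4 of the 8 highest, *Kap*, *Miox*, *Ugt3a2* and *Mep1b*, were on the proximal tubule lists. *Ces1f* and *Ces2c*, carboxylesterases, *Ugt3a1* and *Ugt3a2*, glycosyltransferases, and *Inmt*, a methyltransferase, rose by a log2 of 5.18 to 6.07 (*Ces2c* and *Ces1f*). *Inmt* had 3.27 and 2.96 FPKM in ADPKD and 179 and 187 FPKM in ADPKD+MMPP, with ADPKD libraries close to each other. The lowest were of many kinds. *Rpl17*, a ribosomal protein gene, had 316 and 400 FPKM in ADPKD and was listed at 0 in both treated libraries. *Epcam*, the adhesion molecule that defines epithelial cells, had 249 and 239 FPKM in ADPKD, 110.4 and 110.8 FPKM in WT and 1.39 and 0.668 FPKM in ADPKD+MMPP, while *Krt8* and *Aqp2* were high in the same libraries. *Epcam* has 5 annotated transcripts in GENCODE and 1 in RefSeq. *Bag1*, a co-chaperone, had 119 and 105 against 0.628 and 0.272 FPKM, *Emp1*, an epithelial membrane protein, 399 and 449 against 5.39 and 5.13 FPKM and *Adamts4*, an aggrecanase, 60.1 and 117 against 0.141 and 0.114 FPKM. *Rnf19b* and *Gm13889* fell by 6.66 and 6.57. These genes stayed lower by a log2 of 4.02 to 5.55 when centred within bins, *Adamts4* and *Emp1* at the ends, with *Rpl17* left aside. *Rpl17*, *Bag1* and *Adamts4* passed the filter through the ADPKD libraries alone and could only be lower as deposited. The treatment and the making of the treated values cannot be told apart in these decreases.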

How the data were processed

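The data are RNA-seq of kidney cells described as DBA-positive, in 6 libraries, 2 per group. The labels also speak of RNA from whole kidney and do not settle which was sequenced for each library. According to the methods and the submitters' processing notes, the authors aligned reads to GRCm38 (mm10) with HISAT2 2.1.0, counted them on genes with featureCounts 1.6.0 and deposited FPKM for each library. The annotation release and the step from counts to FPKM are not given in the sources used here. Gene models came from GENCODE vM21 and matched 53253 of the 55367 symbols. FPKM times exon length gave whole reads (within 0.05 of a read) for 98.3% to 99.0% of low values, which gave the depth. A value of 3 reads or fewer is at the floor, and 2 libraries per group limit the precision of each mean.

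Log2(FPKM + 1) of the 13909 genes was tested with limma (version 3.58.1, run in R version 4.3.3) in a single model of the 6 libraries, with Benjamini-Hochberg adjusted p-values. Fold changes on this scale are understated for low genes. A call needed a 1.5-fold change and P under 0.05. An exact permutation test of 2 against 2 libraries cannot go below 0.333. The step was checked on simulated data. Alternatives covered the pseudocount, filter, scaling, libraries and trend in the fit, a replicate block, thresholds, leaving out each library, centring of protein-coding genes within 20 bins of the proportion of exon bases unique to 1 transcript, and centring on one-transcript genes.

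Members and gene lists were chosen with earlier results of these data known. Among called protein-coding genes without overlap between groups and with a mean of at least 10 FPKM in a group, the text names the 12 highest and 12 lowest with 1 transcript and the 8 highest and 8 lowest with more, then up to 3 called members of each list in each direction and its most abundant member, and genes the study names. *Uqcrfs1*, *Arl4d*, *Tubb2a*, *Areg* and *Lmcd1* were added for their promoters. Not every gene chosen by the rule is given with values, and some are not reported here.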

Additional observations from a re-analysis of the deposited data

How the results depend on the processing

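Between the alternatives, the number of genes called stayed within 1.5 times of 10219 except where genes under 5 FPKM were left out, which left 6652, of which 3555 were lower. Lower calls among one-transcript genes, 75 as reported, were 48 with a pseudocount of 5, 44 above 5 FPKM and 45 at a fold change of 2. Centring within bins gave 2938 lower calls, and 587 one-transcript calls, 303 higher and 284 lower. Centring on one-transcript genes gave 894 higher and 9441 lower calls over all genes, and 580 one-transcript calls, 297 higher and 283 lower. Leaving out each library gave 9842 to 10319 calls, 3957 to 4240 higher and 5882 to 6093 lower, and 929 to 992 one-transcript calls, 863 to 920 higher and 66 to 91 lower. Same-numbered ADPKD and ADPKD+MMPP libraries did not deviate together (correlation 0.0135), so the numbers do not pair them, and with the replicate block 10270 genes were called, 4163 higher and 6107 lower, with 993 one-transcript calls, 916 and 77.

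Several values changed sign. Centring within bins gave *Scnn1b* 0.45, *Atp6v1c2* 0.73, *Umod* 0.44, *Slc6a18* 0.83, *Slc6a19* 0.53, *Slc26a1* 0.84, *Cd79b* 0.51, *Spp1* 0.43, *Mcm5* 0.032, *Ect2* 0.27, *C1qb* -0.10, *Cd79a* -0.31 and *Krt8* -0.14, and medians of 0.74 for principal cell and 0.24 for heat shock genes. Centring on one-transcript genes gave *C1qb* -0.11, *Cd79a* -0.32, *Col3a1* -0.15, *Rgs5* -0.047, *Acta2* -0.029 and *Krt8* -0.14, and medians of -0.38 for thick ascending limb, -0.33 for brush border, -0.32 for lymphocyte, -0.86 for red cell, -0.78 for antioxidant, -0.42 for cell division and -0.58 for peroxisomal genes. TMM factors gave medians of 0.16 for principal cell, 0.046 for early and 0.25 for heat shock genes, quantile normalization gave *Krt8* -0.12, and leaving out genes under 5 FPKM gave the fibroblast list 0.11. The median of genes with the full CRE, -0.15, was -0.40 for the shorter site and 0.97 over one-transcript genes. By construction the centrings subtract a median that differs between gene structures. For the other settings the cause was not tested.

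Leaving out 1 library turned 3 medians: principal cell 0.40 without ADPKD replicate 1, heat shock 0.068 without ADPKD replicate 2 and red cell -0.23 without ADPKD+MMPP replicate 1. The fibroblast median, -0.52, was -0.19 without ADPKD+MMPP replicate 2, and that of early genes, -0.25, was -0.11 without ADPKD replicate 1 and -0.16 without ADPKD replicate 2. With Benjamini-Hochberg adjustment, 4 of 176 named genes lost their call. With 11.8 M and 10.9 M reads, genes with few reads in the treated libraries are less certain than those of the ADPKD libraries.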
